A study of Homo sapiens with 6 samples.

Results

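Transcripts of the immediate early EGR, IER, NR4A1 and ZFP36 genes were examined in HaCaT, a keratinocyte line from adult human skin that became immortal in culture without a transforming virus. The 10 genes were named by symbol: EGR1, EGR2, EGR3, IER2, IER3, IER5, ZFP36, ZFP36L1, ZFP36L2 and NR4A1. Every probe set to which the platform annotation gave one of these symbols and no other was taken, which gave 19 of 54613 probe sets and 9 of 19775 genes; the annotation used here gave EGR2 no probe set, and EGR2 was not analysed here. RNA came from 3 cultures exposed to negative pressure (a gradient of 125 mmHg) and from 3 cultures at ambient pressure, each for 12 h. All 6 cultures were the same line, grown in DMEM with serum and antibiotics, and the labels name no transgene or drug. RNA was extracted straight after the exposure, so the arrays show a single time and a single line, and in bulk RNA fewer cells with a transcript and less of it per cell cannot be told apart.

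Immediate early genes are transcribed within minutes of a stimulus such as a growth factor or mechanical load, without new protein synthesis, through factors that already sit on their promoters. ERK signalling activates ternary complex factors, which work with serum response factor (SRF) at CArG boxes, and the transcripts are usually short-lived. EGR1, EGR2 and EGR3 are zinc finger transcription factors, NR4A1 is an orphan nuclear receptor, the IER genes encode small regulators of growth and survival, and ZFP36, ZFP36L1 and ZFP36L2 are proteins that bind AU-rich elements of mRNA and bring in the deadenylation machinery. In keratinocytes these genes answer to wounding, growth factors and inflammatory signals.

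The values are log2 signals summarised per probe set, and differences are the negative pressure value minus the ambient value. The replicate 3 arrays of both groups stood apart from the other 4 arrays on the first principal component (40.4% of the variance). The replicate numbers were treated as possible pairs, so a fit with the number as a block stands beside the fit without it where the call changes. Keratinocyte markers fixed as a list were high (8 measured of 11, means from 8.10 to 12.50, none past the test without the block); with the block the desmosomal cadherin gene DSG3 was higher (0.63, limma adjusted p = 0.0146, and 0.153 without it), named after its value was seen. Of 12 measured markers of other cell types, 10 lay below the median gene mean of 4.997. On the array the mean of those other markers ran from 4.11 to 4.30 at ambient and from 4.06 to 4.23 under negative pressure, with 1 of the 12, the endothelial cadherin gene CDH5, lower (-0.80, limma adjusted p = 0.0325). Their part in the results was not tested.

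None of the 9 measured genes differed between the pressures at a limma adjusted p under 0.05, against 0.920% of all genes, and none had an unadjusted p under 0.05, against 11.7% of all genes. ZFP36 was the member with the smallest p, 1.39-fold higher under negative pressure, and EGR1 was next, 1.35-fold lower. Of the 9 genes, 4 lay above 0 and 5 below, with a median log2 fold change of -0.0041 against 0.015 over all genes. With the replicate number as a block 1 member passed, ZFP36, against 4.94% of all genes. The groups of arrays overlapped in each of the 9 members, whereas they did not overlap in 17.3% of all genes.

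**Figure D1:**
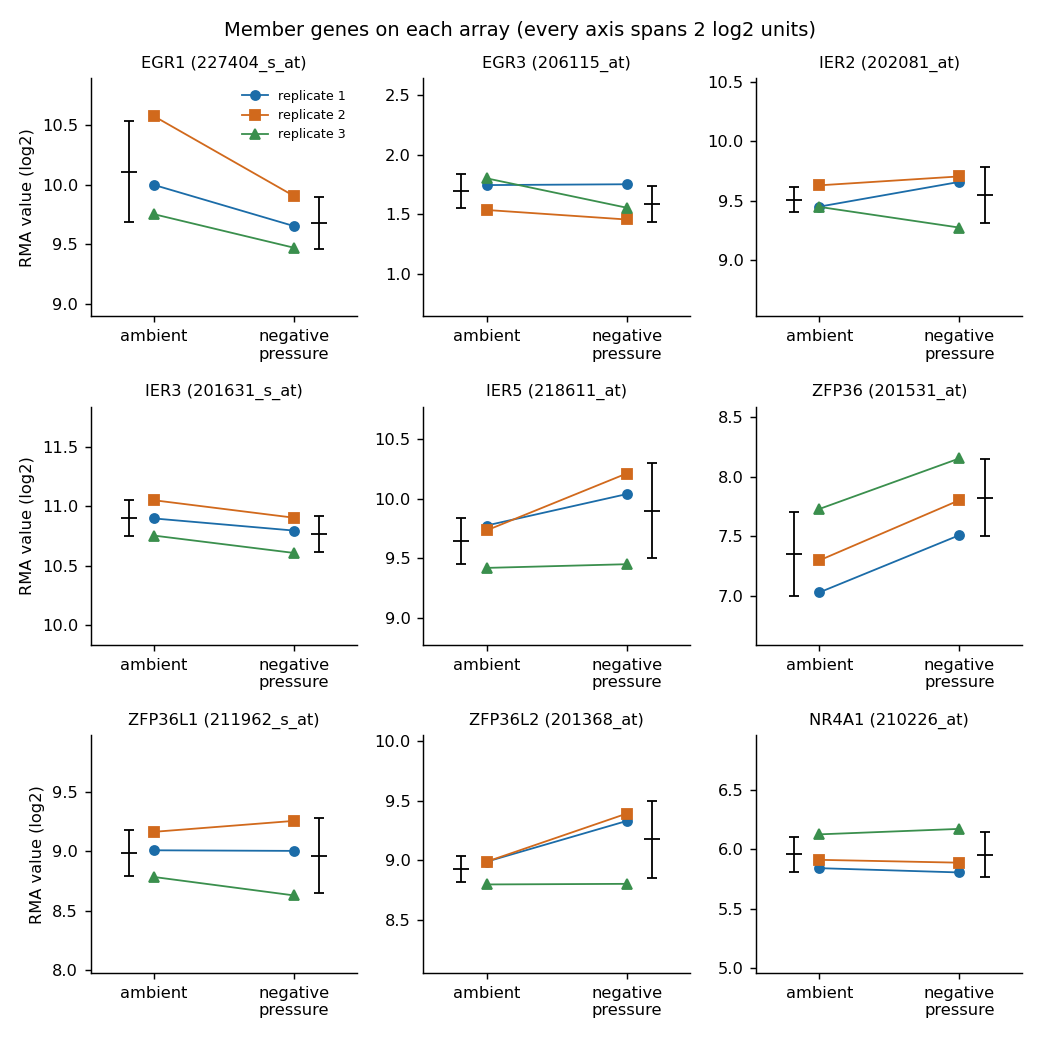
RMA log2 value of each of the 9 measured genes on the 6 arrays, each line joining the arrays with the same replicate number; black marks give the mean and SD of 3 arrays. Along all 3 lines ZFP36 is higher under negative pressure, by 0.43 to 0.51, and EGR1 is lower, by -0.67 to -0.28, while the replicates of a group differ by as much and the groups overlap.

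EGR1, a zinc finger factor that binds GC-rich sites and is among the first genes switched on by serum, was measured by 3 probe sets, and all 3 had estimates below 0 that did not pass without the block. For the probe set that represents the gene (227404_s_at) the ambient arrays read 10.00, 10.58 and 9.75 and the negative pressure arrays 9.65, 9.91 and 9.47, in the order of replicates 1, 2 and 3. The ranges overlapped because negative pressure replicate 2 lay above ambient replicate 3. The group means were 10.11 ± 0.42 and 9.68 ± 0.22 (SD, n = 3 each), and the log2 fold change was -0.43 ± 0.21 (SE; 95% interval -0.90 to 0.038; limma adjusted p = 0.480, and 0.0598 with the replicate block). In the blocked fit it passed with median centring (adjusted p = 0.0498) and not with quantile normalization repeated (0.0568) or cyclic loess (0.0550), nor without the arrays numbered 1, 2 or 3 (adjusted p = 0.197, 0.365 and 0.0952). When 1 array was left out, the change on 227404_s_at was smallest without ambient replicate 2, its highest array (-0.20, limma adjusted p = 0.863). It was largest in size without ambient replicate 3 (-0.61). Without both arrays numbered 2 the blocked fit gave -0.31. Without ambient replicate 2 alone the other EGR1 probe sets stood at -0.35 (201694_s_at) and -0.55 (201693_s_at), and neither passed.

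The dimmer EGR1 probe sets showed a like difference with less overlap. On 201694_s_at the ambient arrays read 9.07, 9.33 and 8.87 and the negative pressure arrays 8.69, 8.87 and 8.30, so that the groups met at 8.87 without crossing. On 201693_s_at the ambient arrays read 6.40, 6.60 and 6.85 and the negative pressure arrays 5.90, 6.15 and 6.17, with every negative pressure array below every ambient array. Their log2 fold changes were -0.47 ± 0.18 and -0.54 ± 0.15 (SE). In the fit over all probe sets the limma adjusted p was 0.396 for 201694_s_at and 0.190 for 201693_s_at. With the replicate block 201693_s_at passed (adjusted p = 0.0437) and 201694_s_at did not (0.0675), where 2.27% of all probe sets passed. The call of 201693_s_at was lost when the arrays numbered 1, 2 or 3 were left out of the blocked fit (adjusted p 0.171, 0.140 and 0.109), at log2 fold changes of -0.57, -0.59 and -0.47.

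Set against the ambient array of the same number, EGR1 was lower under negative pressure in all 9 comparisons of 3 probe sets and 3 numbers. The differences were -0.35, -0.67 and -0.28 on 227404_s_at, -0.38, -0.46 and -0.57 on 201694_s_at and -0.50, -0.45 and -0.69 on 201693_s_at. The 3 probe sets read the same 6 RNA samples and are not replicates of the pressure. IER3, IER5 and ZFP36 also kept the same sign in all 3 numbers, as did some probe sets of ZFP36L1, ZFP36L2 and NR4A1.

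The EGR1 promoter is shown because it holds CArG boxes, the element at which SRF and its partners act. The window runs from 250 bases before to 50 after the start of transcription at chr5:138465229-138465528 of GRCh38.p14, plus strand, from RefSeq, and capitals mark CArG boxes and the motif GCGNGGGCG bound by EGR proteins.
EGR1 promoter: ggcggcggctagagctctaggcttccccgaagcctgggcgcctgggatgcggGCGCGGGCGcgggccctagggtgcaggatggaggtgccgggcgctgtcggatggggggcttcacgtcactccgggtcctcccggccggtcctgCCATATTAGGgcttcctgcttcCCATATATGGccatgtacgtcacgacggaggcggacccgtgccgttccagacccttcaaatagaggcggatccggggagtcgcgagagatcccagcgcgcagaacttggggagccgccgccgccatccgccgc
Searched on both strands, it holds 2 CArG boxes, at -105 to -96 (CCATATTAGG) and -83 to -74 (CCATATATGG), and 1 EGR motif at -198 to -190 (GCGCGGGCG), none overlapping another. A CArG box stands in 1.29% of 35116 RefSeq promoter windows of this length and the EGR motif in 9.43%. RefSeq windows matched 7 of the 10 genes (EGR1, EGR2, IER2, IER5, ZFP36, ZFP36L1 and NR4A1; 11 windows). Among them a CArG box occurred only in EGR1 and in 1 of 3 windows of EGR2, and the EGR motif in 1 window each of EGR1, EGR2 and ZFP36L1. The cyclic AMP element TGACGTCA, searched in the same way and present in 1.85% of all windows, occurred in 1 of the 2 windows of ZFP36L1. A match is a string of letters, not a measured binding site.

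EGR3, a paralog of EGR1 with a similar DNA-binding domain, gave a signal near the bottom of the array. Its single probe set read 1.75, 1.54 and 1.80 at ambient and 1.75, 1.46 and 1.56 under negative pressure. The ranges overlapped throughout, and the mean stood at the 2.80th percentile of all genes. The log2 fold change was -0.11 (95% interval -0.40 to 0.18; limma adjusted p = 0.861), on this dim signal.

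None of the 3 IER genes passed with or without the block, and all 3 gave bright signals. IER2, a nuclear protein induced by growth factors, read 9.45, 9.63 and 9.45 at ambient and 9.66, 9.70 and 9.27 under negative pressure. Its replicates 1 and 2 were higher and its replicate 3 lower under negative pressure, and the log2 fold change was 0.036 (95% interval -0.28 to 0.36; limma adjusted p = 0.965). Its sign turned when negative pressure replicate 1 or 2 was left out (-0.020 and -0.043).

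IER3, a stress-inducible regulator of survival and of ERK signalling, read 10.90, 11.05 and 10.75 at ambient and 10.79, 10.90 and 10.61 under negative pressure. It was lower in all 3 numbered pairs, by 0.10 to 0.15 in size, a step close to the SD of 0.15 among arrays of each group. The log2 fold change was -0.13 (95% interval -0.43 to 0.16; limma adjusted p = 0.811, and 0.584 with the replicate block). The interval leaves out a 2-fold change in either direction, as do those of the other measured genes in the gene fit, EGR3 on a dim signal.

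IER5, a regulator that binds heat shock factor HSF1, read 9.77, 9.73 and 9.42 at ambient and 10.04, 10.21 and 9.45 under negative pressure. Replicates 1 and 2 were higher under negative pressure, by 0.26 and 0.48, and replicate 3 by 0.031. The log2 fold change was 0.26 ± 0.20 (SE; 95% interval -0.19 to 0.70; limma adjusted p = 0.737). Leaving out negative pressure replicate 3 gave 0.48 and leaving out its replicate 2 gave 0.10, and neither passed.

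NR4A1, the nuclear receptor also called NUR77, was measured by 3 probe sets that did not show the same step. On 210226_at, which represents the gene, the arrays read 5.84, 5.91 and 6.13 at ambient and 5.81, 5.89 and 6.17 under negative pressure. These values were nearly equal within each number, and the log2 fold change was -0.0041 (95% interval -0.32 to 0.31; limma adjusted p = 0.996). On 202340_x_at it was 0.10 (adjusted p = 0.935).

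The third NR4A1 probe set, 211143_x_at, read 4.57, 4.35 and 5.07 at ambient and 4.86, 4.93 and 5.18 under negative pressure. It was higher in all 3 numbered pairs, by 0.29, 0.57 and 0.11, and its groups still overlapped through ambient replicate 3. The log2 fold change was 0.32 ± 0.19 (SE; limma adjusted p = 0.669 over all probe sets, and 0.257 with the replicate block). Taking this probe set, the one of largest variance, as the gene's value gave 0.32 in place of -0.0041.

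ZFP36, also called tristetraprolin, a zinc finger protein that speeds the decay of cytokine mRNA, had the smallest p of the members. It read 7.03, 7.30 and 7.73 at ambient and 7.51, 7.80 and 8.16 under negative pressure. Within each number the negative pressure array was higher, by 0.48, 0.51 and 0.43, and across numbers the groups overlapped, since ambient replicate 3 lay above negative pressure replicate 1. The group means were 7.35 ± 0.35 and 7.82 ± 0.32 (SD, n = 3 each), and the log2 fold change was 0.47 ± 0.21 (SE; 95% interval -0.0015 to 0.94).

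The ZFP36 difference did not pass in limma without the block (adjusted p = 0.430) and passed with it (adjusted p = 0.0290). The SD among its 3 paired differences was 0.041, against 0.35 and 0.32 among the arrays within a group. The blocked call was kept with quantile normalization repeated, median centring and cyclic loess (adjusted p 0.0341, 0.0312 and 0.0384). It was lost without the arrays numbered 1, 2 or 3 (0.164, 0.117 and 0.0775) and in the blocked fit over all probe sets (0.0626), at 0.45 to 0.49. ZFP36 had 1 probe set, so no other probe set of the gene bears on the value.

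The promoter of ZFP36 is shown beside that of EGR1 because these genes had the largest steps, in opposite directions. The window lies at chr19:39406597-39406896 of GRCh38.p14, plus strand, from RefSeq, and has the same extent around the start.
ZFP36 promoter: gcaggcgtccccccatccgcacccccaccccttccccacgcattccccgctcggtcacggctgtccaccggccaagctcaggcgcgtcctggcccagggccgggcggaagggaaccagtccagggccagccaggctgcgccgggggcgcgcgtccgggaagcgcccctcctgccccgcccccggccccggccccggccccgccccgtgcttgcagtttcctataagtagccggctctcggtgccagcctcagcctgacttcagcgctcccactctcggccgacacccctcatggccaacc
The searched letters of the CArG box, the EGR motif and TGACGTCA are not in this window, which is why it has no capitals, and nothing follows from that about the factors themselves.

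ZFP36L1, a paralog that binds the same elements, was bright and level on its representing probe set. On 211962_s_at the arrays read 9.01, 9.16 and 8.78 at ambient and 9.002, 9.25 and 8.63 under negative pressure, with wide overlap. The log2 fold change was -0.0225 (95% interval -0.41 to 0.37; limma adjusted p = 0.984), and its sign turned when ambient replicate 2 or negative pressure replicate 3 was left out. The other 3 probe sets of ZFP36L1 gave -0.037, -0.13 and -0.16, with limma adjusted p from 0.828 to 0.985.

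ZFP36L2, the remaining paralog, had 4 probe sets with different steps. On 201368_at, which represents the gene, the arrays read 8.99, 8.99 and 8.80 at ambient and 9.33, 9.39 and 8.80 under negative pressure. Replicates 1 and 2 were higher under negative pressure, by 0.34 and 0.40, and replicate 3 by 0.0048. The log2 fold change was 0.25 ± 0.17 (SE; 95% interval -0.12 to 0.63; limma adjusted p = 0.660); leaving out negative pressure replicate 3 gave 0.44 and leaving out its replicate 2 gave 0.14.

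The dimmer ZFP36L2 probe set 201367_s_at read 5.78, 6.05 and 6.17 at ambient and 6.46, 6.20 and 6.79 under negative pressure. All 3 negative pressure arrays lay above all ambient arrays, with ambient replicate 3 and negative pressure replicate 2 almost touching. Its log2 fold change was 0.48 ± 0.17 (SE; 95% interval 0.09 to 0.87; limma adjusted p = 0.365 over all probe sets, and 0.108 with the replicate block). The other ZFP36L2 probe sets, 201369_s_at and 227681_at, stood at -0.021 and 0.00048.

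Over all 19 member probe sets, none passed the limma fit over 54613 probe sets, where 0.480% of all did. An unadjusted p under 0.05 was found for 3 of the 19 (201693_s_at and 201694_s_at of EGR1 and 201367_s_at of ZFP36L2), against 9.86% of all probe sets. The same 3 were those whose groups did not overlap, 15.8% of the members' probe sets beside 15.0% of all. With the replicate block 1 of 19 passed, the EGR1 probe set 201693_s_at, against 2.27% of all probe sets.

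**Figure D2:**
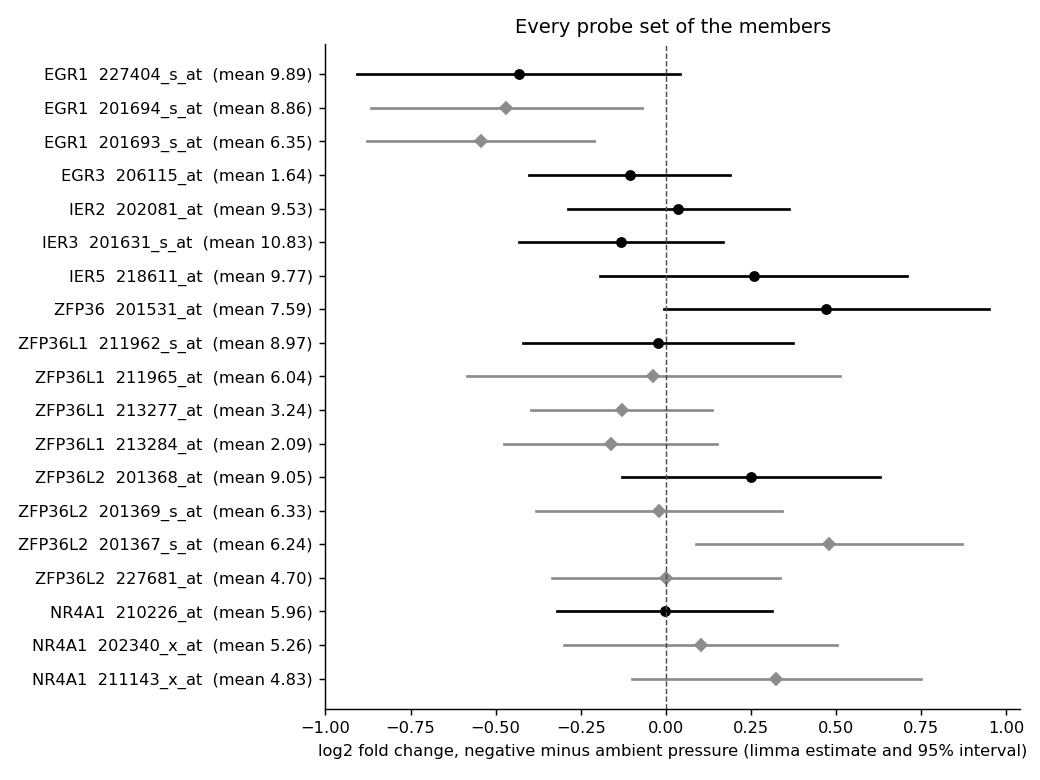
Log2 fold change of the 19 member probe sets with its 95% interval from limma; black circles mark the probe set that represents a gene, grey diamonds the others, and the mean log2 value stands beside each name. The 3 EGR1 estimates lie between -0.54 and -0.43, ZFP36 stands at 0.47, and the estimates of ZFP36L2 spread from -0.021 to 0.48.

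Differences between members with the same name stem (EGR, IER or ZFP36) were tested within each array. A larger step in one member does not show that it differs from another. Of the 9 pairs planned, 7 could be formed without EGR2, and each was compared with an exact two-sided permutation test, in which 3 arrays against 3 can reach no p below 0.1. ZFP36L1 minus ZFP36L2 was 0.061 ± 0.10 in the ambient cultures and -0.21 ± 0.10 in the others (SD, n = 3 each; exact permutation p = 0.1, adjusted over 7 pairs 0.35). It was the 1 pair of the 7 whose groups did not overlap, with a difference of -0.27 ± 0.082 (SE), and 0.1 is the smallest p this test can give.

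ZFP36 minus ZFP36L1 differed by 0.49 ± 0.44 and ZFP36 minus ZFP36L2 by 0.22 ± 0.45 (SE; exact permutation p = 0.4 and 0.6). These errors take in the offsets between replicate numbers. Within numbers 1, 2 and 3 ZFP36 minus ZFP36L1 changed by 0.49, 0.41 and 0.58, with an SD of 0.084, and ZFP36 minus ZFP36L2 by 0.14, 0.10 and 0.42, with an SD of 0.17. The former stood at 0.16 without negative pressure replicate 3 and at 0.78 without ambient replicate 3, and the latter at -0.13 and 0.47. Among the IER genes, IER3 minus IER5 differed by -0.39 ± 0.16 and IER2 minus IER3 by 0.17 ± 0.072 (SE; exact permutation p = 0.2 each). IER2 minus IER5 differed by -0.22 ± 0.14 and EGR1 minus EGR3 by -0.33 ± 0.37 (exact permutation p = 0.2 and 0.5). EGR1 minus EGR3 stood at -0.013 without ambient replicate 2 and at -0.56 without ambient replicate 3. EGR3 read near the bottom of the array, so this pair cannot show whether EGR1 and EGR3 changed differently. No pair passed after adjustment over the 7.

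**Figure D3:**
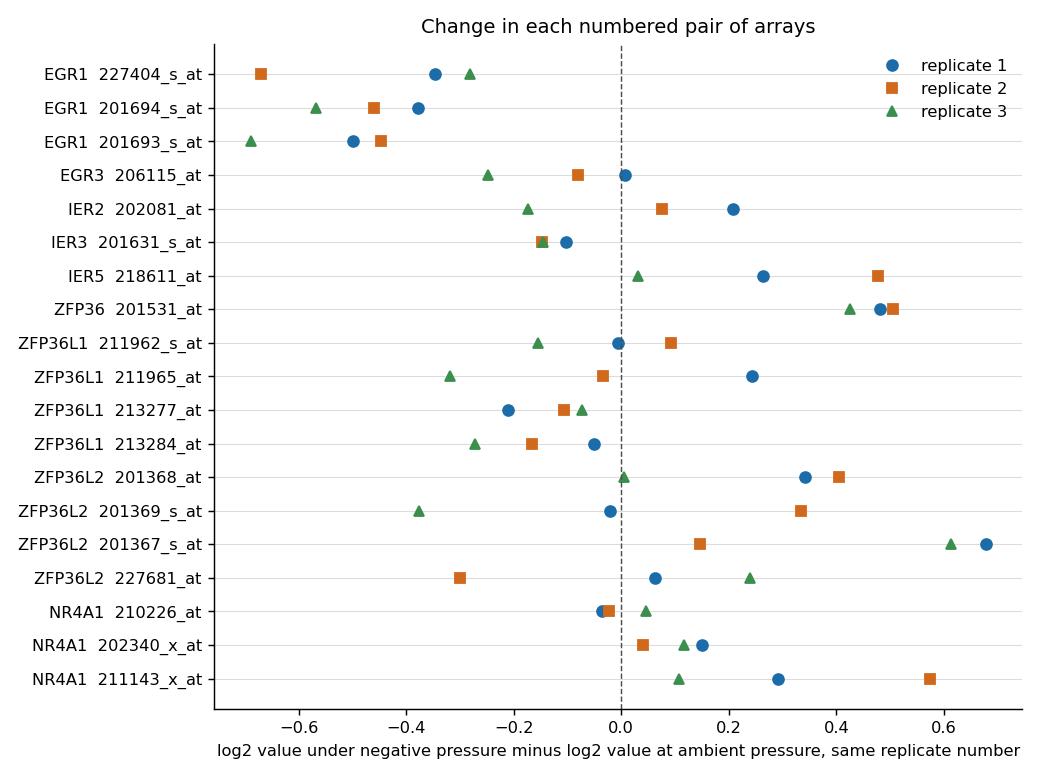
Log2 value under negative pressure minus that at ambient pressure for each replicate number (circle 1, square 2, triangle 3) in the 19 member probe sets. The 9 EGR1 points lie left of 0 and the 3 ZFP36 points lie together at 0.43 to 0.51, while the points of IER2, ZFP36L1 211965_at and ZFP36L2 201369_s_at fall on both sides.

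In several members the arrays differed by replicate number as much as or more than by pressure. In ZFP36 the replicate 3 array lay above the mean of replicates 1 and 2 by 0.57 at ambient and by 0.50 under negative pressure. In IER5 it lay below that mean, by -0.34 and -0.68, and in EGR1 227404_s_at likewise, by -0.54 and -0.31. The offset had the same sign in both groups for 16 of 19 member probe sets (84.2%, with 8 below and 8 above), against 64.4% of all probe sets. Among all probe sets with a mean of at least 7.588, where 8 of the 19 lie, the share was 77.4%. Several of the 19 read the same gene.

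Probe sets of 1 gene could be offset in opposite directions. For EGR1, 227404_s_at and 201694_s_at were lower in replicate 3 of both groups, whereas 201693_s_at was higher, by 0.36 and 0.14. For ZFP36L1, 211962_s_at was lower by -0.30 and -0.50 and 211965_at higher by 0.87 and 0.44. ZFP36L2 201368_at was lower by -0.19 and -0.56 and 201367_s_at higher by 0.26 and 0.46.

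Of the 8 brightest member probe sets, 7 were lower in replicate 3 of both groups, ZFP36 being the other; among all probe sets at least as bright, 57.5% were lower in both. As a sign of RNA quality, the ACTB control probe sets at the 3' end exceeded those at the 5' end by 0.27 in ambient replicate 3 and 0.42 in negative pressure replicate 3, and by 0.64 to 0.85 on the other 4 arrays. Between the pressures this gap did not separate (exact two-sided permutation p = 0.5). The GAPDH controls did not set replicate 3 apart. Their gap was 0.155 in ambient replicate 3 and 0.086 in negative pressure replicate 3, and 0.053 to 0.213 on the other 4 arrays. Between the pressures the GAPDH gap did not separate either (exact two-sided permutation p = 0.2). The part of either gap in the offsets was not tested.

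**Figure D4:**
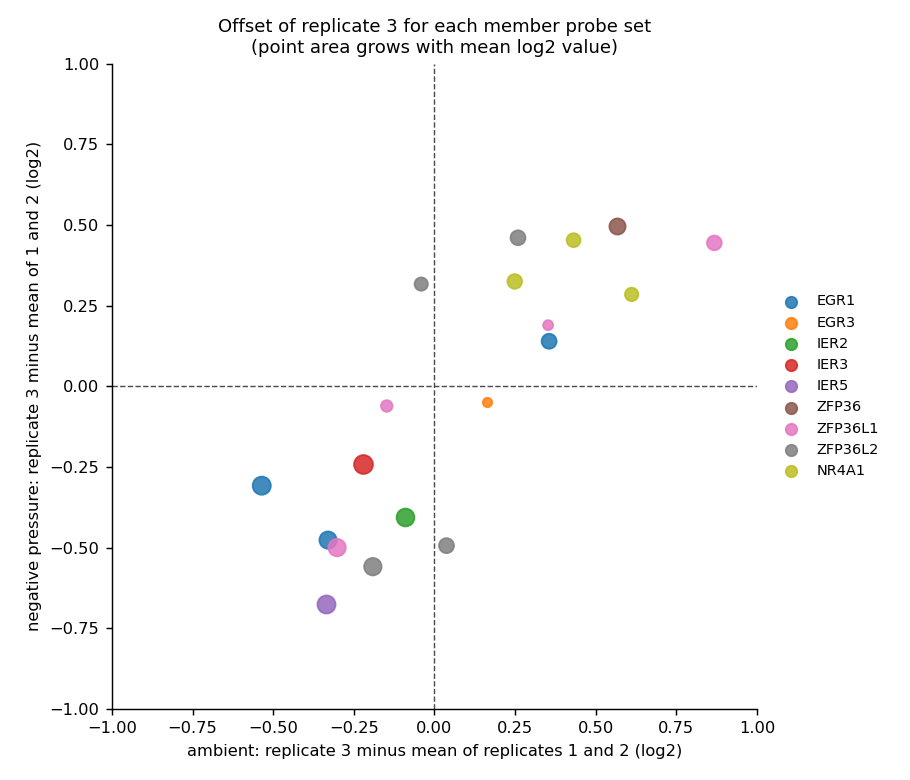
Replicate 3 minus the mean of replicates 1 and 2, ambient pressure on the x axis and negative pressure on the y axis (both log2), for the 19 member probe sets, coloured by gene, with larger points for higher mean values. The points fall in the lower left (8) and upper right (8) quadrants with 3 outside them, and EGR1, ZFP36L1 and ZFP36L2 have points in both.

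The genes whose profile over the 6 arrays lay nearest to that of ZFP36, by the root mean square difference of log2 values centred on each gene's mean among 9886 genes above the median mean, were CALCOCO1 (0.084), GABARAP (0.11), ZNF581 (0.12) and AZIN2 (0.12). Like ZFP36 these genes were highest in replicate 3 of each group. Their own log2 fold changes were 0.35, 0.35, 0.45 and 0.39, with limma adjusted p from 0.383 to 0.562. With the replicate block ZNF581 passed (0.0352) and the other 3 did not (0.0609 to 0.0927).

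The factors that drive the members were described from lists of genes. Over all genes 0.920% passed in limma, 4.94% with the replicate block, and 11.7% had an unadjusted p under 0.05. None of 6 measured genes of SRF, its ternary complex factors and MRTF coactivators passed in limma (2 above 0, median -0.11), and none had an unadjusted p under 0.05. The smallest p were those of the ternary complex factors ELK3 (-0.44 ± 0.20, SE; adjusted p = 0.447, and 0.0431 with the replicate block) and ELK4 (-0.41, 0.510). Of 9 genes of the ERK cascade measured among 14 listed, none passed and 2 had an unadjusted p under 0.05 in limma, the kinase gene ARAF (0.39, adjusted p = 0.208) and the receptor gene EGFR (0.37, 0.366). Of 6 other family genes and EGR corepressors (EGR4, NR4A2, NR4A3, IER5L, NAB1 and NAB2) none passed and none had an unadjusted p under 0.05, with IER5L at 0.40 (adjusted p = 0.515) and NR4A2 at 0.29 (0.479).

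Other immediate early genes lay on both sides of 0, with 17 above and 21 below. Of 38 measured, 1 rose, 1 fell and 36 did not pass, with a median of -0.033, where 0.920% of all genes passed. An unadjusted limma p under 0.05 was found for 11, against 11.7% of all genes. Of these JUNB was higher, whereas FOSB, JUN, FOSL1, CCN1, DUSP6, NFKBIZ, PTGS2, SGK1, TNFAIP3 and JUND were lower. With the replicate block 1 rose and 6 fell, where 4.94% of all genes passed. JUNB, an AP-1 subunit, went from 8.12 ± 0.15 to 8.80 ± 0.072 (SD, n = 3 each; limma adjusted p = 0.0396). FOSL1, its AP-1 partner, went from 9.81 ± 0.23 to 8.77 ± 0.36 (adjusted p = 0.0467). Both were named because they passed, and their groups did not overlap, as in 17.3% of all genes.

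Genes described as EGR1 targets included 2 that rose, none that fell and 11 that did not pass, with a median of 0.12 over 13 measured. Over all genes 0.920% passed, and 4.94% did with the replicate block. With the block 2 of the targets rose and 1 fell. The 1 was the tissue factor gene F3 (-0.60, limma adjusted p = 0.432 without and 0.0306 with the block), named after its value was seen. The 2 were the death ligand gene TNFSF10 (1.12 ± 0.12, SE; limma adjusted p = 0.00786) and the prostaglandin E synthase gene PTGES (1.03 ± 0.13, adjusted p = 0.0168). EGR1 itself had an estimate below 0 that did not pass without the block in the same comparison. Its part in the change of these genes was not tested.

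Transcripts with AU-rich elements that ZFP36 is known to bind had a median of -0.28 over 21 measured, against 0.015 over all genes; 14 lay below 0. An unadjusted limma p under 0.05 was found for 11 of the 21, against 11.7% of all genes. With the replicate block 7 fell and 2 rose, where 4.94% of all genes passed. Without the block 2 fell, none rose and 19 did not pass, where 0.920% of all genes passed. The 2 were the interleukin-1 genes IL1A, from 10.52 ± 0.12 to 9.57 ± 0.27 (SD, n = 3 each; limma adjusted p = 0.0299), and IL1B, from 10.79 ± 0.072 to 10.15 ± 0.12 (adjusted p = 0.0413). This list shares 5 measured genes with the other immediate early genes. Like the other lists it was chosen with earlier results of these data known, and no test of the set was run. The part of ZFP36, which did not pass without the block, in the values of these transcripts was not tested. Of 21 measured deadenylation and decay partners none passed and 2 had an unadjusted p under 0.05 in limma, the deadenylase gene CNOT8 (0.54 ± 0.11, SE; adjusted p = 0.0738, and 0.0210 with the replicate block) and its relative CNOT6L (-0.31, 0.315).

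**Figure D5:**
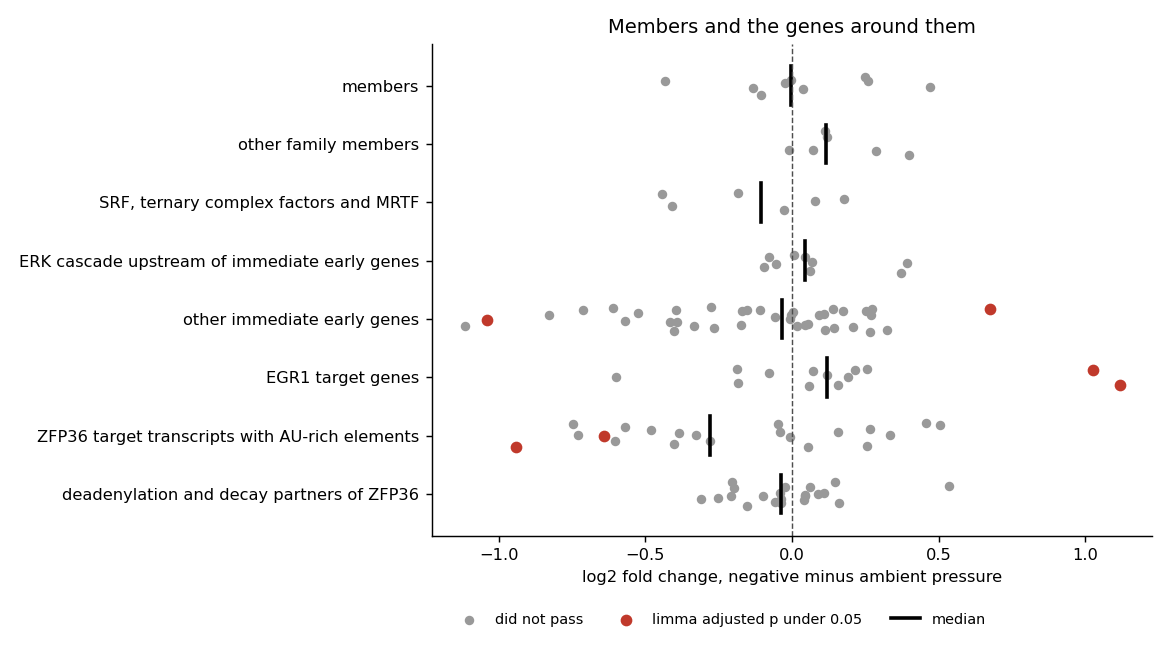
Log2 fold change of the 9 measured members and of the genes around them, 1 point per gene, with red points past a limma adjusted p of 0.05 and a black bar at each median. The members lie between -0.43 and 0.47 with no red point; the 6 red points are JUNB, FOSL1, TNFSF10, PTGES, IL1A and IL1B.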

How the data were processed

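RNA of 6 HaCaT cultures, 3 per pressure, was measured on Affymetrix arrays of 54675 probe sets. The authors deposited log2 values, background-corrected, normalized and summarised with RMA, and the submitters' processing notes name Affymetrix Expression Console 1.2; scan dates and filters are unstated. Groups and replicate numbers came from the titles. Of 54613 probe sets beside 62 controls, 41091 had 1 symbol, 1801 several and 11721 none. Each of 19775 genes was represented by its probe set of highest mean, with no filter on low values.

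The pressures were compared with limma 3.58.1 (lmFit, eBayes) under R 4.3.3 and Benjamini-Hochberg adjustment over all 19775 genes or all 54613 probe sets and a threshold of 0.05; intervals are at 95%. The fit was tested on simulated data. Deviations from the group means correlated across genes at 0.27, 0.27 and 0.53 between arrays numbered 1, 2 and 3, so equal numbers were treated as pairs. The value between ambient 1 and negative pressure 2, whose numbers differ, was 0.425, above those of the matched numbers 1 and 2, so for these the pairing is not settled. An offset of replicate 3 alone would give such values, and no stated day or batch ties the numbers. P-values measure the spread among 3 cultures.

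The members and gene lists were chosen with earlier results of these data known. Named were all members, the changed genes of each list (at most 6) or otherwise its 2 of smallest p, and the 4 genes nearest in profile to the member of smallest p.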

Additional observations from a re-analysis of the deposited data

How the results depend on the processing

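Without the replicate block 0 members passed in each fit run, over 9 genes, or 8 where dim genes were left out. With the block 1 gene passed (ZFP36) and, over probe sets, 1 of 19 (EGR1 201693_s_at). In those fits 4.94% of all genes and 2.27% of all probe sets passed. The blocked fit gave ZFP36 alone with quantile normalization repeated or cyclic loess, both ZFP36 and EGR1 with median centring, and 0 members without the arrays numbered 1, 2 or 3. Over all genes 182 passed; 976 did with the replicate block, 1145 with array weights, 372 when both replicate 3 arrays were dropped, and from 7 to 145 when 1 array was. EGR1 lay between -0.64 and -0.20 and ZFP36 between 0.30 and 0.66 over these settings, with no change of sign.

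Members near 0 turned in sign without passing. Leaving out 1 array gave IER2 from -0.043 to 0.17, ZFP36L1 from -0.17 to 0.14, NR4A1 from -0.11 to 0.079 and ZFP36 minus ZFP36L2 from -0.13 to 0.47. Without both replicate 3 arrays ZFP36L1 stood at 0.044, with or without the block. NR4A1 stood at 0.14 with the mean of its probe sets and 0.32 with its most variable one, where ZFP36 minus ZFP36L2 stood at -0.0085. In the blocked fit without the arrays numbered 1, IER2 stood at -0.049 and NR4A1 at 0.011, and without those numbered 2 NR4A1 stood at 0.0056. The cause was not tested. The blocked fits with another normalization, or without 1 replicate number, were chosen after seeing the data. So were the changes within replicate numbers of the differences between members. EGR3 was dim (mean log2 value 1.64), and the number of arrays limits the precision.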
